A study of Mus musculus with 14 samples.

Results

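The genes of the mouse H3K4 demethylases Kdm5a, Kdm5b, Kdm5c, Kdm1a and Kdm1b were examined for the histone mark that 3 of them erase. The 5 genes were chosen by name. Their H3K4me3 peak summits were taken as all summits inside the gene or within 2 kb of it. This gave 48 of the 153207 summits in the deposited table, with 11 at Kdm5a, 10 at Kdm5b, 8 at Kdm5c, 9 at Kdm1a and 10 at Kdm1b. All 48 passed the filter on low values and were tested.

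H3K4me3, trimethylation of lysine 4 on histone H3, was measured by chromatin immunoprecipitation and sequencing (ChIP-seq) on mononucleosomes released with micrococcal nuclease. Mice were adult C57BL/6J males (strain tag C57BL/6), 10 to 12 weeks old, and the tissue was the prefrontal cortex. CSDS10 (5 libraries) had 10 days and CSDS30 (5 libraries) had 30 days of chronic social defeat, a daily attack by a strange CD1 mouse, with housing beside an aggressor in between. Control mice (3 libraries) lived in divided cages with no aggressor, although their treatment tag reads as standard housing. Defeated mice were also tested for behaviour shortly before the end, and tissue was collected 24 hours after the last session. All libraries carry the same batch label. The labels do not say whether the numbered libraries of a group came from separate animals, so every p-value below measures the spread between libraries, which may be technical.

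Methyl groups on H3K4 are written by the KMT2 and SETD1 methyltransferase complexes and removed by enzymes of the KDM5 and KDM1 families. KDM5A, KDM5B and KDM5C are oxygen-dependent JmjC enzymes that act on the trimethyl and dimethyl forms. KDM1A (LSD1) and KDM1B (LSD2) are flavin-dependent amine oxidases, whose chemistry reaches the dimethyl and monomethyl forms but not the trimethyl form. KDM1A works within the CoREST complex with RCOR1 and histone deacetylases and, through REST, keeps neuronal genes silent in other cells. KDM5C is encoded on the X chromosome, and its loss causes intellectual disability. The libraries measured the mark at the enzymes' own genes, not the RNA, protein or activity of the enzymes.

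The promoters behind the highest, the most GC-box-rich and the lowest of the genes show how differently these starts are built. Kdm5a has no entry in the RefSeq promoter table and is left out of this choice. Each line is the 250 bases that end just before the start site in the RefSeq promoter table (build GRCm38.p6), 5′ to 3′ on the gene's own strand, with the CpG dinucleotides in capitals. Kdm1a lies on the minus strand (chr4:136602724-136602973), and Kdm1b (chr13:47043249-47043498) and Kdm5c (chrX:152232977-152233226) on the plus strand. They are shown because the level of H3K4me3 was highest at Kdm1a and lowest at Kdm5c, and because Kdm1b gave the lowest value in CSDS30 against control among the strongest summits.
Kdm1a: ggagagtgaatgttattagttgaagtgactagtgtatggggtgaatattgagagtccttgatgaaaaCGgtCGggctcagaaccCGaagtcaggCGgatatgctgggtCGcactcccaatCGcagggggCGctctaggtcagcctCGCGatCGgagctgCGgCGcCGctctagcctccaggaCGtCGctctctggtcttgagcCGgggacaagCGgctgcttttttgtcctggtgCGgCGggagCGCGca
Kdm1b: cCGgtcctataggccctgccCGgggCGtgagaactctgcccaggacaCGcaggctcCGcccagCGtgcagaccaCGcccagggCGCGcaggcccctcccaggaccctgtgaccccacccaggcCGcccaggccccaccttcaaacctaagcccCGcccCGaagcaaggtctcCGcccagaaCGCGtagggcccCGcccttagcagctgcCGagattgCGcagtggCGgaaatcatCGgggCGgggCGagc
Kdm5c: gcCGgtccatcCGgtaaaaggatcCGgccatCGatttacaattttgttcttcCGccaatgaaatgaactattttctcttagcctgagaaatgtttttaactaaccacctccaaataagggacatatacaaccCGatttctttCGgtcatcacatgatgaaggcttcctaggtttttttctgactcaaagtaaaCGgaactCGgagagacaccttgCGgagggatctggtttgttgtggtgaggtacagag

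Counted over the whole 300-base window of the table, Kdm1a held 29 CpG dinucleotides, Kdm1b 26, Kdm5b 17 and Kdm5c 13, against a median of 7 over all 32851 promoters. Those promoters were not limited to genes with the mark. Among the 9665 genes whose level is compared below, 4596 held 15 to 29 CpGs and 2090 held 30 or more. The others were 2271 with 5 to 14 and 708 with 0 to 4. Kdm5d, the Y-linked paralogue of Kdm5c, held 15. Base composition ran in a similar order, with 72.3% G or C at Kdm1b, 61.3% at Kdm1a, 54.7% at Kdm5b, 47.0% at Kdm5c and 36.7% at Kdm5d. The GC box GGGCGG, searched on both strands, matched at 6 places in the Kdm1b window and at 1 in that of Kdm5b, and 35.7% of all promoters hold at least one match. Kdm5c, Kdm1a and Kdm5d had none. Kdm5a has no entry in the promoter table, so its promoter was not searched for any of these motifs. CCAAT was found at Kdm5c and Kdm1a and in 37.4% of all promoters. GATGGCG, part of the core bound by YY1, was found at Kdm5c, beginning at position +30 (the start site is +1), and in 3.49% of all promoters. TGACG was found at Kdm5b and in 20.8% of all promoters. TATAAA (13.6% of all promoters) matched at 2 places at Kdm5d alone, while the ETS core CCGGAAG (8.86%), the E-box CACGTG (7.15%) and the NRF1 core GCATGC (7.93%) matched at none of these genes. All were searched on both strands. Such matches describe letters and are not measured binding sites.

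The mark sat at a single end of every gene, at the start site wherever the RefSeq table gives one. The genes are 41907 to 80476 bp long, but their summits covered only 1432 to 1998 bp each, from -677 to +1597 bp of the start, and none lay elsewhere in the gene bodies. For Kdm5a distances are from the gene boundary at the lower coordinate, and for the other genes from the RefSeq start site. In Kdm5a, whose start site and strand are not given there, the first summit above that boundary was at +140 bp. The first summit after the start was at +133 bp in Kdm5b, +134 bp in Kdm5c, +148 bp in Kdm1a and +152 bp in Kdm1b. Over the 8736 protein-coding genes with such a summit the median distance was 128 bp (quartiles 98 and 154 bp). All 5 distances lay between these quartiles, although that of Kdm5a is not from a known start. The interval of 120 to 160 bp around them held 38.0% of those genes, and as an interval around these values it is no test of them. Summits within a gene were a median of 166 to 222 bp apart, so a fragment can fall near more than 1 summit and neighbouring summits are not independent.

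The shape of the mark differed between the genes (mean normalised read count over the 13 libraries, a read count divided by 1 size factor per library). Kdm1a went from 96.4 at +148 bp to its strongest summit, 120.6 at +503 bp, and was down to 19.7 at +1297 bp. Kdm5b had 2 maxima, 106.3 at +133 bp and 111.3 at +936 bp, with 51.9 at +445 bp and 53.2 at +663 bp between them. Kdm1b was strongest at its first downstream summit, 107.6 at +152 bp, and declined at each later summit to 28.0 at +1255 bp. Kdm5a had 65.3 to 90.9 at its 5 summits from +140 to +739 bp and 45.9 to 66.0 at the 3 beyond. Kdm5c was strongest at its first summit, 55.3 at +134 bp, and lay between 20.6 and 39.9 at the other 7.

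Summits upstream of the start set the genes apart again. Kdm5a had 3 before the gene boundary used in place of a start (40.5 to 82.7 normalised reads). Kdm1b had 3 upstream (33.1 to 68.3), while Kdm5b had 2 (16.8 and 30.1), Kdm1a 1 (16.6) and Kdm5c none in the table. At Kdm5a and Kdm1b another gene starts close by on the minus strand. Ccdc77, with a start site at 120364369 on chromosome 6, overlaps Kdm5a at the gene boundary from which the Kdm5a distances are taken. It shares all 11 summits. Tpmt, which encodes thiopurine methyltransferase, starts at 47043217 on chromosome 13, a short way upstream of Kdm1b, and shares all 10 summits. Mgat4e, on the minus strand of chromosome 1, overlaps the start of Kdm5b and shares all 10 of its summits. Its RefSeq start site, 134549682, lies well outside them. Its gene boundary at the higher coordinate, 134561746, lies among them, between the summits at +1341 and +1597 bp. ChIP-seq carries no strand, so the signal at these 3 promoters cannot be divided between the neighbours. No other gene shared the summits of Kdm5c or Kdm1a.

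**Figure D1:**
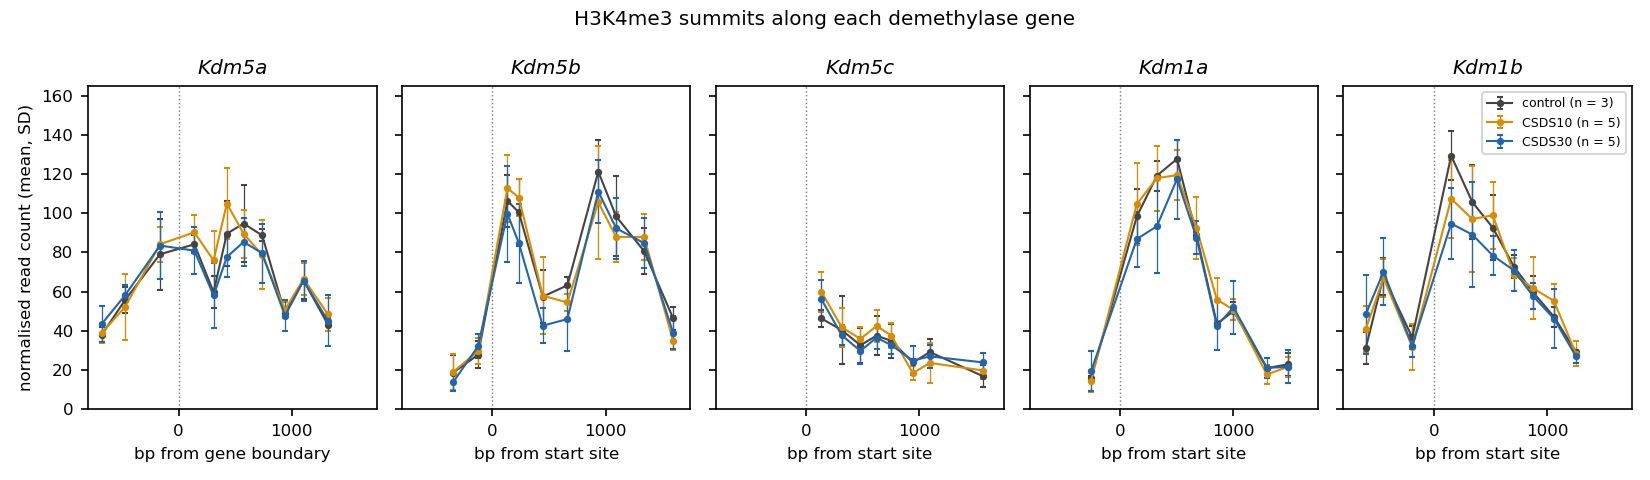
Mean normalised read count (SD as bars) at each H3K4me3 summit against its distance in bp from the start site (for Kdm5a from the gene boundary), for control (n = 3), CSDS10 (n = 5) and CSDS30 (n = 5). All signal lies between -677 and +1597 bp, Kdm5b has maxima at +133 and +936 bp, and the strongest summit of Kdm5c is below those of the other 4 genes in every group.

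The strongest summit of each gene was used to rank the genes, since a sum would grow with the number of summits. Over the 13 libraries Kdm1a had 120.6 ± 14.9 normalised reads (SD, n = 13), Kdm5b 111.3 ± 21.1, Kdm1b 107.6 ± 21.4, Kdm5a 90.9 ± 18.6 and Kdm5c 55.3 ± 10.1. In the same library, Kdm1a was above Kdm5b in 10 of 13 libraries, Kdm5b above Kdm1b in 9, Kdm1b above Kdm5a in 10 and Kdm5a above Kdm5c in 13. The ranges of the first 3 genes overlapped widely, so their order is within the spread between libraries, while Kdm5c was below each of the other 4 in every library. Against the strongest summits of 15201 protein-coding genes (median 97.7, quartiles 68.1 and 117), Kdm1a stood at percentile 79.4, Kdm5b at 68.0, Kdm1b at 62.8, Kdm5a at 41.9 and Kdm5c at 18.0.

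The low level of Kdm5c was set beside that of its chromosome, of which a male carries a single copy. The 492 X-linked genes had a median of 49.5 normalised reads against 99.0 for 14705 autosomal genes. Among X-linked genes Kdm5c was at percentile 69.3. Whether the single copy accounts for these levels was not tested. Kdm5d on chromosome Y, not counted among the 5 genes, had 40.3 ± 10.9 (SD, n = 13) at its strongest of 4 summits, and Kdm5c was above it in 12 of 13 libraries. Kdm5c and Kdm5d are close paralogues, and how reads that fit both were placed is not given in the sources used here, so their separate values are uncertain.

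Promoter CpG count was related to the level in broad steps. Among 9665 genes whose promoter window was in the table, the median of the strongest summit was 53.8 normalised reads with 0 to 4 CpGs, 82.2 with 5 to 14, 105.4 with 15 to 29 and 102.9 with 30 or more. Spearman's rho across these genes was 0.267, given as a description, since the genes share libraries. Kdm1a (29 CpGs), Kdm1b (26) and Kdm5b (17) were above the median of their step. Kdm5c (13) was between the lower quartile (48.2) and the median of its own, and Kdm5d (15) was below the lower quartile of its step, 82.9.

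**Figure D2:**
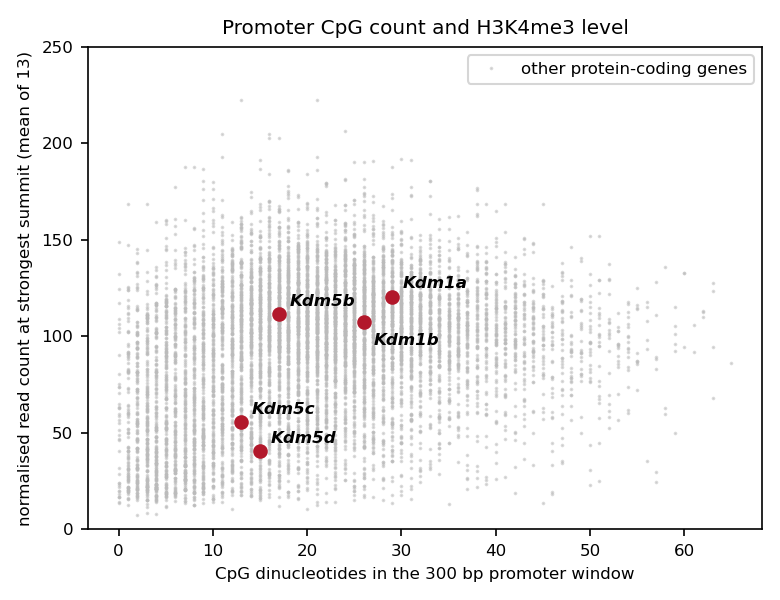
CpG dinucleotides in the 300 bp promoter window (horizontal axis) against the normalised read count at the gene's strongest summit, mean of 13 libraries (vertical axis), for protein-coding genes in grey, with the family members in the promoter table and Kdm5d in red. Kdm1a, Kdm1b and Kdm5b lie between 107.6 and 120.6, Kdm5c and Kdm5d at 55.3 and 40.3, and 2 genes above 250 are outside the axis.

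Library depth and quality touch every comparison that follows. Between 4512817 and 10887911 reads fell on summits per library. As a measure of contrast, the mean of the strongest 10% of all summits was divided by that of the weakest 10%, which gave 6.59 to 6.997 in control, 6.50 to 8.14 in CSDS10 and 4.98 to 6.53 in CSDS30. The extremes were CSDS10 replicate 2 (8.14) and CSDS30 replicate 2 (4.98). At the demethylase genes the 18 summits with a mean of at least 70 against the 11 with a mean under 35 gave a ratio of 2.65 in CSDS30 replicate 2 and of 3.58 to 4.45 in the other 12 libraries. CSDS30 replicate 2 was the lowest of its group at 22 of 48 summits, and CSDS10 replicate 2 the highest of its group at 21 of 48. The markers of cortical excitatory neurons all had summits (6 of 6), as did those of inhibitory neurons (3 of 3), astrocytes (3 of 3) and endothelium (3 of 3). Summits were also at 3 of 4 oligodendrocyte markers and 1 of 3 for microglia, where Cx3cr1 and Csf1r had none, and the non-brain genes Alb, Hbb-bs and Ins2 had none. All 4 markers of striatal neurons, a neighbouring tissue, had summits too, with a summed level of 301 to 339 in control, 283 to 412 in CSDS10 and 251 to 325 in CSDS30, and the part of striatal tissue in the results was not tested. The tissue is a mixture, so fewer cells of a type and less mark per cell cannot be told apart.

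No summit of the demethylase genes passed the test in any of the 3 comparisons. Limma, fitted over 152270 summits with Benjamini-Hochberg adjustment at 0.05, called 0 of 48 in CSDS10 against control, in CSDS30 against control and in CSDS30 against CSDS10. In the whole table it also called 0 summits (0% in each comparison), with 4891, 5194 and 7795 at an unadjusted p under 0.05. EdgeR's quasi-likelihood test on the recovered reads called 0 in each (4599, 4932 and 6838 at an unadjusted p under 0.05), and DESeq2 called 0 (5410, 5753 and 7795). Among the 48 summits, 0, 3 and 5 had an unadjusted limma p under 0.05, against 3.21%, 3.41% and 5.12% of all summits. The corresponding numbers were 0, 1 and 5 with edgeR and 0, 2 and 5 with DESeq2. All values below are therefore differences that did not pass, given with their error.

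The X-linked Kdm5c, whose enzyme erases the measured mark, had a higher mean in CSDS10 than in control at its strongest summit. Of its 8 summits, 6 had a positive and 2 a negative log2 fold change in that comparison. The negative ones were -0.37 ± 0.32 (SE) at +942 bp and -0.36 ± 0.33 at +1093 bp. At its strongest summit (152233361 on chromosome X) the control libraries had 44.0, 51.3 and 43.6 normalised reads, the CSDS10 libraries 55.0, 77.6, 51.8, 55.9 and 59.4, and the CSDS30 libraries 60.3, 59.4, 67.3, 53.0 and 40.6. Every CSDS10 library was above every control library, by a margin as small as that between 51.3 and 51.8, and CSDS30 overlapped control through replicate 5. The log2 fold change was 0.36 ± 0.21 (SE) in CSDS10 against control, with a 95% interval of -0.06 to 0.78 and a limma adjusted p of 0.9999. It was the only strongest summit of the family whose groups did not overlap, and 2.87% of the strongest summits of all protein-coding genes were apart in that comparison. Summed over its 8 summits, Kdm5c had 261 ± 29.0 in control (SD, n = 3), 279 ± 49.0 in CSDS10 (SD, n = 5) and 268 ± 19.0 in CSDS30 (SD, n = 5). The sum in CSDS10 rested on replicate 2 with 364, since the other 4 libraries lay between 248.5 and 278. Without that library the log2 fold change of the sum against control was -0.01 instead of 0.09. The smallest p-values of Kdm5c in the CSDS30 comparisons were at weak summits with higher values in CSDS30. At +1566 bp CSDS30 had 23.8 ± 4.85 (SD, n = 5) and control 16.7 ± 5.60 (SD, n = 3), a log2 fold change of 0.52 ± 0.33, and at +942 bp CSDS30 had 24.8 ± 7.50 and CSDS10 18.4 ± 3.66, a log2 fold change of 0.38 ± 0.28. The groups overlapped at both, with unadjusted p-values of 0.128 and 0.187 and limma adjusted p-values of 1 and 0.968.

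Kdm5a, the founding member of the family and a partner of the retinoblastoma protein, had its strongest summit at 120364526 on chromosome 6. Control libraries had 94.3, 103 and 71.1 normalised reads, CSDS10 libraries 102, 121, 94.1, 125 and 82.1, and CSDS30 libraries 77.5, 64.0, 82.0, 73.6 and 91.3. CSDS10 was mostly high and CSDS30 mostly low, but all 3 groups overlapped. The log2 fold change was 0.23 ± 0.17 in CSDS10 against control and -0.20 ± 0.17 in CSDS30 against control. In CSDS30 against CSDS10 it was -0.42 ± 0.15, with an unadjusted p of 0.00808 and a limma adjusted p of 0.963. The summit 117 bp upstream of it, at +310 bp, gave -0.41 ± 0.19 in the same comparison (unadjusted p 0.0360), and 0.33 ± 0.22 in CSDS10 against control. Over all 11 summits the sums were 747 ± 65.7 in control, 780 ± 29.1 in CSDS10 and 725 ± 60.0 in CSDS30, and the log2 fold change of CSDS30 against CSDS10 was -0.11 ± 0.07. Of the 11 summits, these 2 neighbours alone had an unadjusted p under 0.05 in that comparison.

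Kdm5b, whose enzyme was first described as PLU-1, had its strongest summit at 134561114 on chromosome 1, in the second maximum. Control libraries had 104, 123 and 136 normalised reads, CSDS10 libraries 102, 154, 104, 77.9 and 91.1, and CSDS30 libraries 123, 109, 130, 90.7 and 102. CSDS10 replicate 2 was the highest of all libraries and replicate 4 the lowest, so the spread within CSDS10 took in both other groups. The log2 fold change was -0.23 ± 0.17 in CSDS10 and -0.13 ± 0.17 in CSDS30 against control, and 0.10 ± 0.15 in CSDS30 against CSDS10.

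The dip between the maxima of Kdm5b gave the most negative of the 48 log2 fold changes in CSDS30 against control. At +663 bp (134560841) control libraries had 62.2, 67.8 and 59.6 normalised reads, CSDS10 libraries 57.4, 56.5, 52.7, 57.6 and 48.0, and CSDS30 libraries 37.6, 28.1, 56.8, 38.5 and 68.8. All CSDS10 libraries were below all control libraries, and 4 of 5 CSDS30 libraries were below them too while replicate 5 was the highest of all. The log2 fold change was -0.21 ± 0.23 in CSDS10 and -0.52 ± 0.23 in CSDS30 against control (unadjusted p 0.0316, limma adjusted p 1). The last summit, at +1597 bp, was also lower in every CSDS10 library (30.5 to 41.0) than in every control library (41.2 to 52.7), with a log2 fold change of -0.40 ± 0.24. Between the defeat groups the lowest p at Kdm5b was at +234 bp, with 108 ± 9.53 in CSDS10 and 84.8 ± 20.1 in CSDS30 (log2 fold change -0.38 ± 0.15, unadjusted p 0.0188, limma adjusted p 0.963). Summed over its 10 summits Kdm5b had 720 ± 73.5 in control, 698 ± 67.6 in CSDS10 and 646 ± 62.9 in CSDS30.

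With the summit of Kdm5c, these were the 3 of 48 summits whose groups did not overlap in CSDS10 against control, where 2.98% of all summits were apart. In CSDS30 against control 0 of 48 were apart (2.96% of all summits), and in CSDS30 against CSDS10 0 of 48 (0.72%).

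**Figure D3:**
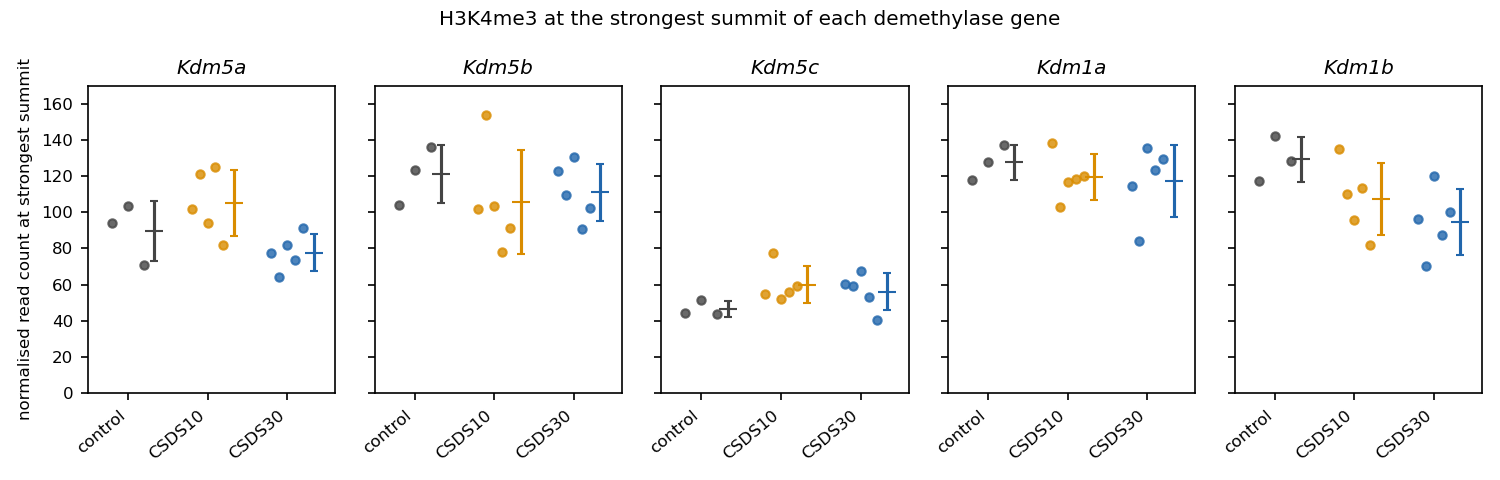
Normalised read count at the strongest summit of each gene (vertical axis from 0) in every library of control (3 points), CSDS10 (5) and CSDS30 (5), with the mean and SD of each group beside the points. Kdm5c separates control from CSDS10 by a small margin, and the groups overlap at the other 4 genes.

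Kdm1a and Kdm1b, the KDM1 genes, had 128 ± 9.73 and 129 ± 12.6 normalised reads (SD, n = 3) at their strongest summits in control. At the strongest summit of Kdm1a (136602220 on chromosome 4) control libraries had 118, 128 and 138 normalised reads, CSDS10 libraries 139, 103, 117, 119 and 120, and CSDS30 libraries 114, 84.3, 136, 123 and 130. The groups overlapped, and CSDS30 replicate 2, the library with the least contrast, was the lowest. The log2 fold changes were small: -0.10 ± 0.15 and -0.14 ± 0.15 in CSDS10 and CSDS30 against control, and -0.04 ± 0.13 between the defeat groups. At the neighbouring summit, +325 bp (136602398), CSDS30 had 93.4 ± 23.8 normalised reads (SD, n = 5), with 62.5 in replicate 2, against 119 ± 7.61 in control (n = 3) and 118 ± 16.6 in CSDS10 (n = 5). There the log2 fold change was -0.39 ± 0.17 against control (unadjusted p 0.0330) and -0.36 ± 0.15 against CSDS10 (unadjusted p 0.0218), with limma adjusted p-values of 1 and 0.963. In CSDS10 against control the smallest p of Kdm1a was at +855 bp, with 56.0 ± 11.1 in CSDS10 and 43.6 ± 1.02 in control (log2 fold change 0.33 ± 0.24). The sums over 9 summits were 587 ± 30.5 in control, 595 ± 49.4 in CSDS10 and 542 ± 46.0 in CSDS30.

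Kdm1b, the amine oxidase that needs GLYR1 and sets maternal imprints in oocytes, showed the largest difference from control among the strongest summits. At 47043651 on chromosome 13 control libraries had 117, 142 and 128 normalised reads, CSDS10 libraries 135, 110, 96.0, 114 and 82.1, and CSDS30 libraries 96.3, 70.3, 120, 87.3 and 100.0. Of the CSDS10 libraries 4 of 5 were below all controls, as were 4 of 5 CSDS30 libraries, with replicate 1 of CSDS10 and replicate 3 of CSDS30 inside the control range. The log2 fold change was -0.28 ± 0.17 in CSDS10 and -0.46 ± 0.17 in CSDS30 against control, the latter with a 95% interval of -0.80 to -0.12, an unadjusted p of 0.00936 and a limma adjusted p of 1. Leaving out each library in turn gave -0.55 to -0.36, the contrast covariate gave -0.23, and the median over the 10 summits in place of the strongest was -0.10. The next summits, at +339 and +520 bp, gave 106 ± 19.0 and 92.6 ± 16.5 in control against 89.1 ± 26.9 and 78.4 ± 9.74 in CSDS30 (log2 fold changes -0.27 ± 0.20 and -0.23 ± 0.17), and at +708 bp the means were 72.6 and 70.8. Upstream, at -603 bp, CSDS30 was higher, with 48.3 ± 20.1 against 31.0 ± 8.26 in control, and the log2 fold change of 0.56 ± 0.31 (unadjusted p 0.0776, limma adjusted p 1) was the largest in size of the 48 in that comparison. CSDS30 replicate 2 had the highest value there, 76.5. Between the defeat groups the +520 bp summit, with 99.0 ± 17.2 in CSDS10, had a log2 fold change of -0.32 ± 0.15 (unadjusted p 0.0347, limma adjusted p 0.963). Summed over its 10 summits Kdm1b had 672 ± 28.7 in control, 657 ± 61.3 in CSDS10 and 615 ± 38.2 in CSDS30. Since Tpmt shares the promoter, the values cannot be assigned to either gene.

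The intervals of the gene sums show which sizes of change the data leave possible. In CSDS10 against control the 95% intervals of the fold ran from 0.93 to 1.18 for Kdm5a, 0.84 to 1.12 for Kdm5b, 0.88 to 1.29 for Kdm5c, 0.89 to 1.15 for Kdm1a and 0.86 to 1.10 for Kdm1b. In CSDS30 against control they ran from 0.86 to 1.09, 0.78 to 1.03, 0.85 to 1.25, 0.81 to 1.05 and 0.81 to 1.03 in the same order of genes. Limma called 0 of 20868 gene sums (0%) in each comparison, with 690, 465 and 1219 (3.31%, 2.23% and 5.84%) at an unadjusted p under 0.05, none of them among the 5 genes. EdgeR called 0 (665, 420 and 964) and DESeq2 0 (666, 426 and 966). All sums overlapped between groups, and in 13 of 15 gene and group combinations the spread of the strongest summit between libraries was above the counting error of its reads.

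**Figure D4:**
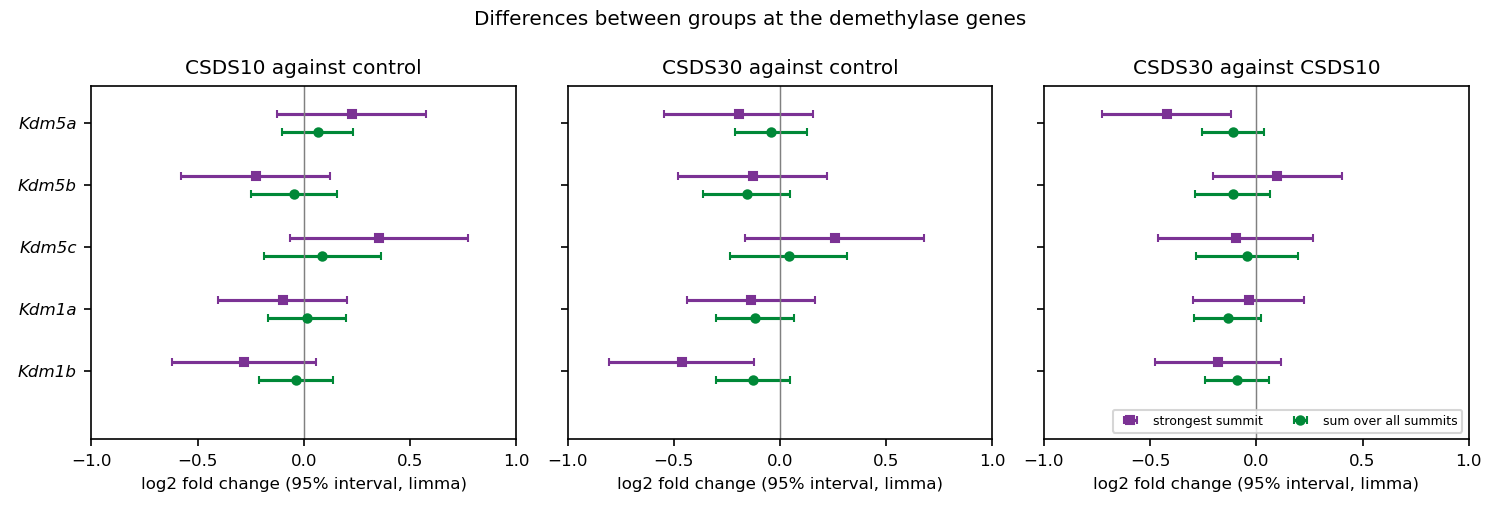
Log2 fold change with its 95% interval (limma) for the strongest summit (squares) and for the sum over all summits (circles) of each gene in the 3 comparisons. The interval excludes 0 for the strongest summit of Kdm1b in CSDS30 against control (-0.46) and of Kdm5a in CSDS30 against CSDS10 (-0.42), both before adjustment, and includes 0 for all sums.

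More members had lower than higher values in CSDS30, as did the strongest summits of genes at large. At the strongest summits 3, 4 and 4 of 5 genes had a negative log2 fold change in CSDS10 against control, CSDS30 against control and CSDS30 against CSDS10, where 46.7%, 65.9% and 68.4% of 15201 genes were negative. Over the 48 summits 21, 35 and 32 were negative, against 49.7%, 49.2% and 50.1% of all summits. In the CSDS30 comparisons the 3 and the 5 summits at an unadjusted p under 0.05 were all lower in CSDS30, where 1.97% and 3.11% of all summits were at such a p and lower. All summits were not matched to the 48 by level of signal. In the CSDS30 comparisons the strongest summits of genes were more often lower (65.9% and 68.4%) than all summits (49.2% and 50.1%). All 5 sums were lower in CSDS30 than in CSDS10, by 0.04 to 0.14 on the log2 scale, as were 58.9% of all gene sums. With edgeR, DESeq2, TMM, total scaling and loess the 5 sums were again all lower, while 49.98%, 49.89%, 50.33%, 48.83% and 51.02% of all gene sums were. Without CSDS10 replicate 2, 4 of 5 sums were lower. These comparisons share libraries and are not independent. These directions did not hold under every setting. After intensity-dependent (loess) scaling 3 of 5 strongest summits were lower in CSDS30 than in CSDS10, and 50.2% of all genes were. With each library's contrast as a covariate 1 of 5 strongest summits and 2 of 5 sums were lower in CSDS30 than in CSDS10. The contrast comes from the same H3K4me3 values, and its ranges barely overlapped (4.98 to 6.53 in CSDS30, 6.50 to 8.14 in CSDS10). The covariate can therefore take up a difference between the groups, and contrast and group cannot be told apart.

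**Figure D5:**
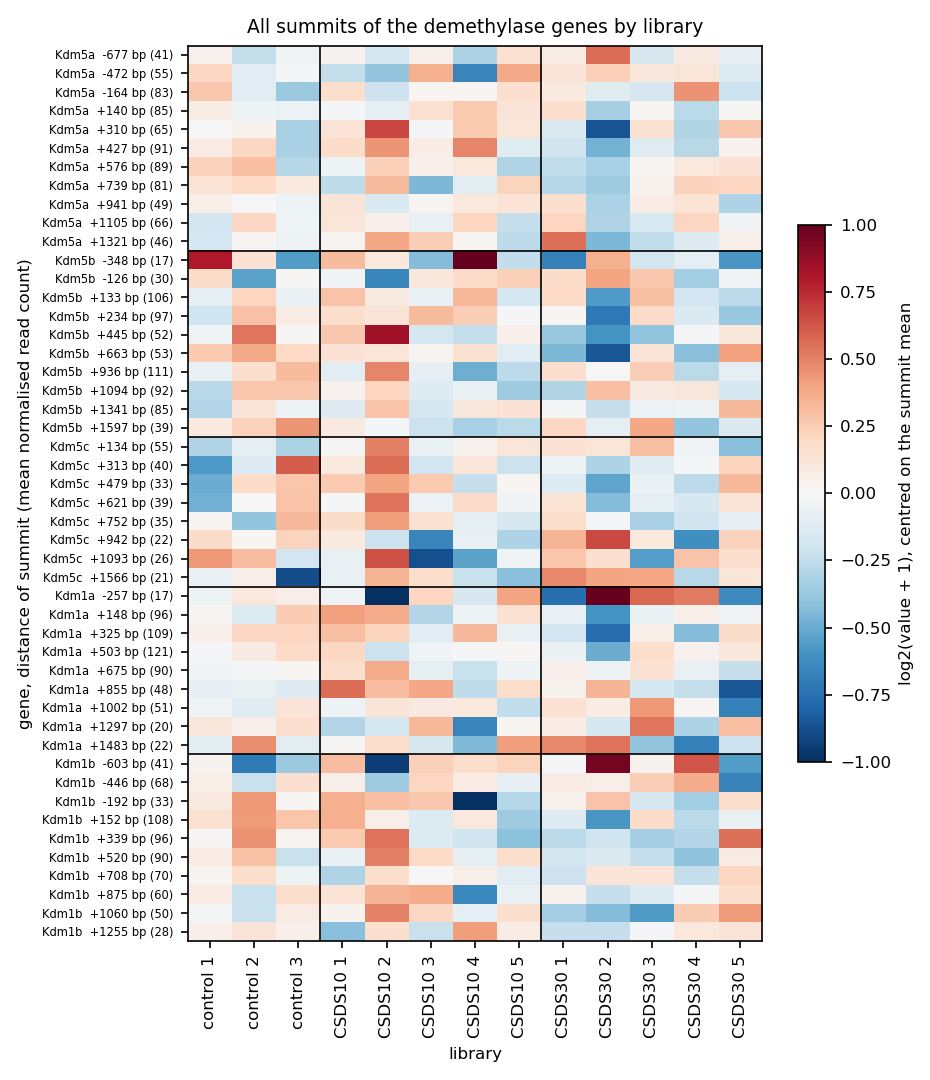
All 48 summits (rows, by gene and distance, with the mean normalised read count in parentheses) in the 13 libraries (columns). Colour is log2(value + 1) centred on each summit's mean, clipped at 1 in either direction. CSDS30 replicate 2 is blue at most strong summits and red at several weak ones, and no block of rows separates the groups.

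The writers of the mark were compared in the same way. Of 19 genes for H3K4 methyltransferases and their complexes, all had a summit and 0 were called, with 11 higher and 8 lower in CSDS10 against control, 1 higher and 18 lower in CSDS30 against control, and 3 higher and 16 lower in CSDS30 against CSDS10. The median log2 fold changes were 0.01, -0.08 and -0.16, beside 0.01, -0.07 and -0.08 over all 15201 genes. After loess scaling the split in CSDS30 against control was 9 higher and 10 lower. Kmt2d, which encodes the enhancer monomethyltransferase MLL4, had 106 ± 7.62 normalised reads in control, 131 ± 13.5 in CSDS10 and 104 ± 8.18 in CSDS30, with log2 fold changes of 0.29 ± 0.14 against control in CSDS10 and -0.33 ± 0.12 between the defeat groups. Setd1a, the catalytic subunit of a COMPASS complex, had 125 ± 7.37 in control and 97.7 ± 10.5 in CSDS30 (log2 fold change -0.36 ± 0.15). Kmt2b had a log2 fold change of 0.27 ± 0.13 in CSDS10 against control, Kmt2c -0.32 ± 0.17 in CSDS30 against control, and Psip1, the chromatin tether of MLL and menin, -0.40 ± 0.14 in CSDS30 against CSDS10.

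The 18 genes for partners of the demethylases all had a summit and 0 were called. They split 12 higher and 6 lower in CSDS10 against control, 5 and 13 in CSDS30 against control, and 4 and 14 in CSDS30 against CSDS10, with medians of 0.07, -0.14 and -0.14. After loess scaling the last 2 splits were 8 and 10, and 7 and 11. Rcor1, which ties KDM1A to nucleosomes in the CoREST complex, had 126 ± 9.67 normalised reads in CSDS10 and 95.6 ± 17.3 in CSDS30 (log2 fold change -0.42 ± 0.13, unadjusted p 0.00394, limma adjusted p 0.963), with 113 ± 14.98 in control. Sin3b, a scaffold of histone deacetylase complexes, had 154 ± 16.8 in CSDS10 and 122 ± 17.0 in CSDS30 (log2 fold change -0.34 ± 0.12). Against control, Zmym2 and Hdac2 had 0.29 ± 0.15 and 0.26 ± 0.16 in CSDS10, and Phf21a and Rcor1 had -0.25 ± 0.16 and -0.25 ± 0.15 in CSDS30.

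Among 14 demethylases of other lysines, again with 0 called, 6 were higher and 8 lower in CSDS10 against control, 5 and 9 in CSDS30 against control, and 3 and 11 in CSDS30 against CSDS10, with medians of -0.02, -0.09 and -0.12. Loess scaling changed the last 2 splits to 7 and 7 each. Phf8, an X-linked eraser of H3K9 and H4K20 methylation that binds H3K4me3, had 61.0 ± 6.42 normalised reads in control, 58.0 ± 10.6 in CSDS10 and 44.6 ± 11.5 in CSDS30. Its log2 fold change was -0.47 ± 0.22 against control and -0.39 ± 0.19 against CSDS10. Kdm3b, an H3K9 demethylase, had 140 ± 19.5 in control and 110 ± 23.4 in CSDS30 (log2 fold change -0.37 ± 0.15). Kdm7a and Kdm8 had 0.28 ± 0.17 and 0.23 ± 0.15 in CSDS10 against control, and Kdm8 had -0.23 ± 0.13 in CSDS30 against CSDS10. The median level of the strongest summit was 114.3 for the methyltransferase complexes, 108.4 for the partners and 115.3 for the other demethylases, beside 107.6 for the 5 H3K4 demethylases.

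Genes with the most similar pattern over the 13 libraries were found by the root mean square difference of centred log2 values, among 14686 protein-coding genes. For Kdm5a these were Fam234a (0.119) and Hid1 (0.121), for Kdm5b H2az1 (0.110) and Mapkbp1 (0.117), and for Kdm5c Qtrt1 (0.136) and Rbm27 (0.146). For Kdm1a they were Mtss1 (0.0772) and Urod (0.0910), and for Kdm1b Nfkbid (0.115) and Mtfmt (0.119). The median difference over all genes was 0.281 to 0.332, and the points share libraries and their contrast. No member was among the nearest genes of another.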

How the data were processed

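H3K4me3 ChIP-seq was deposited by the authors as a table of peak summits (build mm10 in the file) with a normalised signal per library and a peak score, of unknown scale, which entered no test. The tools Bowtie2, DESeq2, MACS2 and Trimmomatic, and the builds GRCm38.p5 and mm10, are listed per the submitters' processing notes. Versions, settings, handling of duplicate reads and the counting width per summit were not given in the sources used here. This deposited signal is reads divided by 1 size factor per library: 100% of values were whole multiples of a step (tolerance 0.001 reads), so that the reads could be recovered. The input library was not analysed here. Intervals and tests take reads as counted, and PCR copies without molecular identifiers are not independent molecules.

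Summits passing edgeR's filterByExpr on the recovered reads (152270) were tested with limma 3.58.1 (variance trend) on log2(value + 1), a scale that understates changes of low summits, with all 13 libraries in 1 fit. A second fit used sums over each gene's summits within 2 kb. EdgeR 4.0.16 and DESeq2 1.42.0 in R 4.3.3 were alternatives on the recovered reads, and the script was tested on simulated data. The 23 pairs of libraries within groups all differed by more than counting noise (chi-square per summit 1.81 to 3.61), so none was treated as a library deposited more than once. Genes, promoters and start sites came from RefSeq (GRCm38.p6), and all 89 symbols searched were matched. Of the 5 genes, 4 had an entry in the promoter table. Exons and introns were not used here. Each gene was named by its strongest summit and its summit with the smallest p, each list by up to 2 genes per comparison with the smallest p, and likeness by the 2 nearest genes that share no summit. The 5 genes and all lists were chosen with earlier results of these data known. Alternatives covered scaling, filters, pseudocounts, windows, covariates, a block on replicate number and the omission of every library in turn.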

Additional observations from a re-analysis of the deposited data

Results flagged for a closer look

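In the CSDS10 group the summed H3K4me3 value of Kdm5c was high in replicate 2, at 364 normalised reads, while the other 4 libraries lay between 248.5 and 278. The gap to the next library was 0.745 of the range of the group, above the limit of 0.71 for 5 libraries (Dixon's test at the 95% level). The same library had the highest contrast between strong and weak summits of all libraries, 8.14. The log2 fold change of the Kdm5c sum in CSDS10 against control was 0.09 with all libraries and -0.01 without this one. With each library's contrast as a covariate it was 0.05. The cause of the high value was not tested.

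That contrast, the mean of the strongest 10% of summits over that of the weakest 10%, was low in CSDS30 replicate 2, at 4.98, while the other 4 libraries of the group lay between 6.13 and 6.53. The gap was 0.740 of the range. At the demethylase genes this library had 1364 normalised reads over the 18 strong summits, where the others had 1567 to 1972, and 314 over the 11 weak summits, where the others had 230 to 288. In all 22 groups were examined in this way, and 2 stood out. Chance gives about 1 in 20.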

How the results depend on the processing

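All counts of called summits and gene sums stayed at 0 under the alternatives run, including the replicate block (0 summits and 0 gene sums in each comparison). Library numbers are not tied to animals or days in the labels, and same-numbered libraries did not deviate together throughout (correlations from -0.289 to 0.369), so the block is given only here.

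Of 30 log2 fold changes, 13 changed sign under at least 1 of these alternatives, none of them past the threshold in any. The omission of 1 library at a time is not counted here and is given below. The values as reported were up to 0.26 in size, at the strongest summits of Kdm5c in CSDS30 against control (0.26), Kdm5b in CSDS10 against control (-0.23) and Kdm1b in CSDS30 against CSDS10 (-0.18). Among strongest summits, the log2 fold change of Kdm5b in CSDS30 against control was 0.0309 with the replicate block and 0.0624 with the contrast covariate, and that of CSDS30 against CSDS10 with the covariate was 0.0239 at Kdm5c, 0.117 at Kdm1a and 0.119 at Kdm1b. For Kdm1a it was 0.0758 with loess and 0.0254 without both replicates 2 of the defeat groups. The covariate and this omission were chosen after seeing the data. Contrast was lower in every CSDS30 library than in every control library, so the covariate can also take up a difference between groups. The median over a gene's summits in place of the strongest gave 0.00649 for Kdm5b in CSDS10 against control, -0.0209 for Kdm5c in CSDS30 against control and -0.125 for Kdm5b in CSDS30 against CSDS10. Among sums in CSDS10 against control, Kdm1a had -0.00092 with loess, -0.00255 without both replicates and -0.0134 with the covariate, and Kdm5c had -0.0130 without both. In CSDS30 against control Kdm5a had 0.0105 without both and 0.0539 with the covariate. In CSDS30 against CSDS10 the covariate gave 0.0640 for Kdm5b, 0.0193 for Kdm5a and 0.114 for Kdm5c, and Kdm5c had 0.0595 without both. The cause was not tested.

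Leaving out 1 library at a time changed the sign of 10 of 30 values. The sums of Kdm5b and Kdm5a in CSDS10 against control and of Kdm5c in CSDS30 against control changed sign only here. The ranges in CSDS30 against CSDS10 were -0.000521 to 0.243 for Kdm5b, -0.168 to 0.0116 for Kdm5c and -0.0932 to 0.0766 for Kdm1a at the strongest summits, and -0.0829 to 0.0545 for the Kdm5c sum. In CSDS10 against control the sums ranged from -0.126 to 0.0212 (Kdm5b), -0.0253 to 0.0561 (Kdm1a), -0.00984 to 0.107 (Kdm5a) and -0.0130 to 0.165 (Kdm5c), and in CSDS30 against control from -0.119 to 0.0105 (Kdm5a) and -0.0407 to 0.120 (Kdm5c). The comparisons against control rest on 3 control libraries, and what limited the precision was not tested.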
